A study of Mus musculus with 16 samples.

Results

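Megakaryocyte and platelet genes were followed across dendritic cell progenitors sorted from the bone marrow of tumor-free and tumor-bearing mice. The 8 genes were Pf4, Ppbp, Itga2b, Gp9, Gp1bb, Gp6, Vwf and Cd9, taken by symbol from the array annotation, and they account for 8 of 28631 symbols and 10 of 39429 noncontrol probes, because Gp1bb has 3 probes and each other gene has 1. MDPs (macrophage-dendritic cell progenitors) give rise to CDPs (common dendritic cell progenitors), and each was sorted by flow cytometry after lineage depletion of bone marrow. All mice were female C57/Bl6 animals, young adults of matched age by the study's methods, and each sample pooled a pair of mice. The 4 groups, with 4 samples in each, were MDPs from tumor-free mice (MDP tumor-free), MDPs from mice with PyMT-B6 tumors (MDP PyMT-B6), CDPs from tumor-free mice (CDP tumor-free) and CDPs from mice with PyMT-B6 tumors (CDP PyMT-B6). The PyMT-B6 line was derived from a mammary tumor of an MMTV-PyMT mouse, in which a mammary promoter drives a viral oncogene. It was placed in the mammary fat and grown to tumors of 1.5 cm in diameter, so the tumor-bearing groups model 1 cell line at 1 tumor size.

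Megakaryocytes are the large marrow cells that shed platelets. They arise from progenitors shared with the erythroid lineage, and GATA and ETS family transcription factors act together on many of their genes. The products of the 8 genes have known places in the platelet. Pf4 and Ppbp encode chemokines stored in alpha granules, Vwf encodes the adhesive protein that tethers platelets to collagen, Gp1bb and Gp9 encode subunits of the receptor for that protein, Itga2b encodes the alpha subunit of the fibrinogen receptor (CD41), Gp6 encodes a collagen receptor, and Cd9 encodes a tetraspanin that is also made by other blood cells.

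Pf4, Ppbp, Gp9 and Gp6 were bright on some arrays and near background on others, and the promoters of these 4 genes are shown because their signals varied most. RefSeq promoters on build GRCm38.p6 were found for 7 of the 8 genes, not for Vwf, and the 250 bases ahead of the start are printed 5′ to 3′ on the gene's strand. Capitals mark the ETS core GGAAG and the GATA motif, which was written as AGATAA or AGATAG and, with another first base, as TGATAA or TGATAG, both searched on either strand. Pf4 lies at chr5:90772185-90772434 and Ppbp at chr5:90768268-90768517, both on the plus strand and beside each other in a chemokine cluster, Gp9 at chr6:87777820-87778069 on the plus strand, and Gp6 at chr7:4397745-4397994 on the minus strand.
Pf4: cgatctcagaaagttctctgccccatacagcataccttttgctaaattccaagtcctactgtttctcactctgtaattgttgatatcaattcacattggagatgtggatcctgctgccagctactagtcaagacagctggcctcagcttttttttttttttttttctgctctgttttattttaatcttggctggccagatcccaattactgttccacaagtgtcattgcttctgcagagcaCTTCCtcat
Ppbp: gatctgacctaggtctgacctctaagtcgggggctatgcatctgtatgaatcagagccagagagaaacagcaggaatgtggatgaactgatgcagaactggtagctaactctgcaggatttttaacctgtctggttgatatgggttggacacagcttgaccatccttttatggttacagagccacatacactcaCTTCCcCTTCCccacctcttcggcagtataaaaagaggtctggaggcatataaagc
Gp9: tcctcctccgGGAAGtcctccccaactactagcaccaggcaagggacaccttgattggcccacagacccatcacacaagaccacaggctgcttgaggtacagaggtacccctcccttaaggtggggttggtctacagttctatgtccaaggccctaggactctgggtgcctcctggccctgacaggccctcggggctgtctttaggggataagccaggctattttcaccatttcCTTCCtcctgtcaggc
Gp6: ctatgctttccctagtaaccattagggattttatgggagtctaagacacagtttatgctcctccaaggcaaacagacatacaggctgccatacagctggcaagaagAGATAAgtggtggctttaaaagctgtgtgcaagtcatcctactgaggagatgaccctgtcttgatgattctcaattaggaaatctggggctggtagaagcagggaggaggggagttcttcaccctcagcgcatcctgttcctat
The Pf4 window held 1 ETS core, 9 to 5 bases before the start, the Ppbp window held 2 side by side, and the Gp9 window held 2. The Gp6 window held 0 ETS cores and 1 GATA motif, AGATAA. The ETS core was present in 6 of the 7 promoters and in 64.1% of all 32851 promoters of the same length. A GATA motif was present in 2 of the 7, Gp6 and Gp1bb, and in 26.5% of all promoters. These matches describe letters in a window and not binding.

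The array probes are 60 bases long. On build mm9, the build printed in the spot tables, the Pf4 probe lies at chr5:91202275-91202334, the Ppbp probe at chr5:91198970-91199029, the Gp9 probe at chr6:87729650-87729709, the Gp6 probe at chr7:4320351-4320410, the Vwf probe at chr6:125636551-125636610 and the Cd9 probe at chr6:125410387-125410446. The Itga2b probe has no position in the files. The 3 Gp1bb probes lie at chr16:18621107-18621166 (probe A, the brightest, used for the gene), chr16:18621535-18621594 (probe B) and chr16:18621717-18621776 (probe C), in a gene that overlaps Septin5 in RefSeq. Probe A is shown with the Itga2b probe because its base composition is far from that of the other probes: 80.0% of its bases are G or C, against 55.0% in the Itga2b probe and a median of 43.3% over all tested probes.
Itga2b probe: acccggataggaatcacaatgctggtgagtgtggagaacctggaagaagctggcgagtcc
Gp1bb probe A: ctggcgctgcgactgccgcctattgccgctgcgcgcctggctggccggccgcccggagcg

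Each sample was hybridized to its own one-color Agilent array, 16 arrays in all on 4 slides. Values are normalised log2 signals, which are the log2 of the processed spot signal minus the array's 75th percentile, so that 0 is the brightness of that percentile and a step of 1 is a doubling. A value says how bright a probe was and cannot be set against another probe's value. Between 58.8% and 71.5% of all probes were well above background on an array, by the scanner's own flag. This share followed the slide, from 58.8% to 64.3% on slide 1 to between 69.4% and 71.5% on slide 4. Slides 2 and 3 held 1 sample of each group. Slide 1 held 2 MDP PyMT-B6 samples and 0 CDP PyMT-B6 samples, and slide 4 held 2 CDP PyMT-B6 samples and 0 MDP PyMT-B6 samples. Slide was thus partly mixed with progenitor among tumor-bearing samples, and with tumor state within each progenitor. The comparison of CDPs with MDPs in tumor-bearing mice was the one most tied to slide. The 6 progenitor markers checked (Flt3, Csf1r, Kit, Cx3cr1, Csf2ra, Cd34) were well above background on all 16 arrays.

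The granule chemokines were the most uneven members. Pf4 was well above background on 15 of 16 arrays. In MDP tumor-free samples 2, 3, 4 and 5 its normalised log2 signals were -0.96, -0.61, -1.25 and -3.01, and in MDP PyMT-B6 samples they were -1.41, -5.33, -1.17 and -1.98, the second not well above background. In CDP tumor-free samples they were -2.78, -3.07, -2.14 and 0.58, and in CDP PyMT-B6 samples -2.94, -4.57, -3.21 and -0.48. The groups overlapped throughout, and the brightest array of the 16 was CDP tumor-free sample 5. Ppbp, the neighbour of Pf4, was well above background on only 6 of 16 arrays. Its signals there were -2.50 and -3.72 in MDP tumor-free samples 3 and 4, -4.82 in MDP PyMT-B6 sample 2, -4.10 and -0.40 in CDP tumor-free samples 3 and 5, and -3.92 in CDP PyMT-B6 sample 5. The other 10 arrays lay between -7.42 and -6.92, at background, and every group held at least 1 array of each kind.

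Vwf, the adhesive protein, was well above background on all 16 arrays. Its signals were -1.74, -2.92, -1.30 and -1.77 in MDP tumor-free samples, -3.07, -2.03, -3.70 and -1.47 in MDP PyMT-B6 samples, -1.04, -1.35, -1.38 and -1.28 in CDP tumor-free samples and -1.92, -0.96, -2.26 and -1.35 in CDP PyMT-B6 samples. The 3 lowest values were the MDP samples on slide 1, from both tumor states.

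Among the surface receptors, Itga2b was well above background on all 16 arrays. Its signals were -1.91, -1.72, -0.56 and -1.28 in MDP tumor-free samples and -3.55, -1.76, -3.84 and -1.52 in MDP PyMT-B6 samples. In CDP tumor-free samples they were -1.13, -0.61, -1.60 and -1.12, and in CDP PyMT-B6 samples -1.39, -1.19, -2.25 and -1.40. The 2 lowest of the 16 were MDP PyMT-B6 samples 2 and 4, both on slide 1, and the other 2 MDP PyMT-B6 samples lay inside the tumor-free range.

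Gp6 was well above background on 7 of 16 arrays. Its signals were -6.05, -2.83, -3.94 and -5.69 in MDP tumor-free samples, of which samples 3 and 4 were above background, and -7.36, -7.24, -6.05 and -7.24 in MDP PyMT-B6 samples, of which 0 were. In CDP tumor-free samples they were -5.39, -3.93, -5.97 and -2.15, with samples 3 and 5 above background, and in CDP PyMT-B6 samples -4.19, -3.54, -7.29 and -3.34, with all but sample 4 above background. Gp9 was well above background on 4 of 16 arrays, at -4.16 and -4.17 in MDP tumor-free samples 3 and 5, -4.22 in MDP PyMT-B6 sample 2 and -1.55 in CDP tumor-free sample 5. It was above background in 0 of 4 CDP PyMT-B6 samples. Both genes therefore had a level in some samples of a group and a bound in the others.

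Gp1bb and Cd9 were well above background on all 16 arrays and had the narrowest ranges of the 8 genes. Gp1bb probe A gave -0.86, -1.54, -0.56 and -0.91 in MDP tumor-free samples, -2.03, -0.77, -1.92 and -0.72 in MDP PyMT-B6 samples, -0.56, -0.46, -0.93 and -1.72 in CDP tumor-free samples and -0.89, -0.32, -0.90 and -0.70 in CDP PyMT-B6 samples. The 4 lowest of these were the 4 arrays of slide 1, whatever the cell type or tumor state. Cd9 gave 0.14, 0.23, -0.77 and -0.44 in MDP tumor-free samples, 0.40, -0.22, -0.25 and -0.11 in MDP PyMT-B6 samples, 0.63, -0.28, 0.62 and 1.31 in CDP tumor-free samples and 0.52, -0.66, -0.06 and 0.42 in CDP PyMT-B6 samples. The Cd9 values of the 4 groups overlapped.

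**Figure D1:**
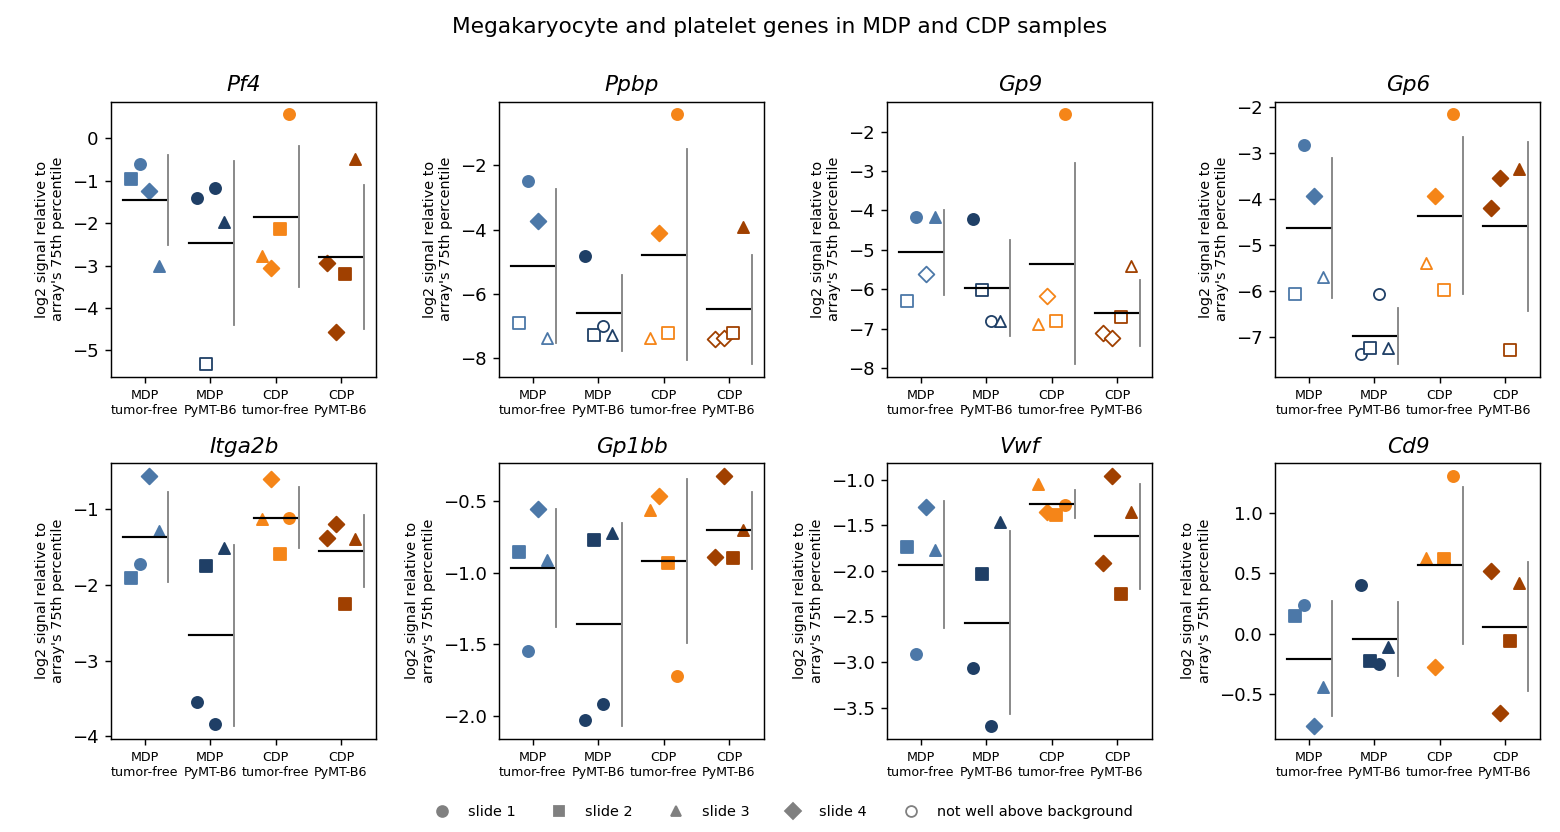
Normalised log2 signal of the 8 genes (y axis) in the 4 groups (x axis), with 1 point per array, a bar at the group mean, the symbol showing the slide and open symbols where the probe was not well above background. The points of Pf4, Ppbp, Gp9 and Gp6 lie farther apart within groups than those of the other 4 genes, and CDP tumor-free sample 5 is the highest point in 5 of the 8 panels.

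Ordered by group mean, the levels ran as follows, with 4 samples a group. Pf4 ran in the order MDP tumor-free (-1.46 ± 1.07, mean ± SD), CDP tumor-free (-1.85 ± 1.66), MDP PyMT-B6 (-2.47 ± 1.94) and CDP PyMT-B6 (-2.80 ± 1.70). Each step of that order was smaller than the SD of either neighbour. Itga2b ran from CDP tumor-free (-1.11 ± 0.40) through MDP tumor-free (-1.37 ± 0.60) and CDP PyMT-B6 (-1.56 ± 0.47) to MDP PyMT-B6 (-2.67 ± 1.197), and Vwf from CDP tumor-free (-1.26 ± 0.15) through CDP PyMT-B6 (-1.62 ± 0.58) and MDP tumor-free (-1.93 ± 0.69) to MDP PyMT-B6 (-2.57 ± 1.005). For both genes MDP PyMT-B6 samples had the lowest mean and the widest spread. Gp6 ran from CDP tumor-free (-4.36 ± 1.70) through CDP PyMT-B6 (-4.59 ± 1.83) and MDP tumor-free (-4.63 ± 1.51) to MDP PyMT-B6 (-6.97 ± 0.61). Cd9 ran from CDP tumor-free (0.57 ± 0.65) through CDP PyMT-B6 (0.06 ± 0.54) and MDP PyMT-B6 (-0.05 ± 0.31) to MDP tumor-free (-0.21 ± 0.48). Gp1bb ran from CDP PyMT-B6 (-0.70 ± 0.27) through CDP tumor-free (-0.92 ± 0.57) and MDP tumor-free (-0.97 ± 0.41) to MDP PyMT-B6 (-1.36 ± 0.71), with neighbours in the order closer than their SDs.

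The first question was whether tumor burden changed these genes in CDPs. Of the 8 genes, 7 had a lower mean in CDP PyMT-B6 than in CDP tumor-free samples, Gp1bb being the exception, and all 8 pairs of groups overlapped. Across all probes, 11.1% did not overlap in this comparison. The 6 genes well above background in enough arrays (at least 3 of 4 in a group) were tested, and 0 passed a Benjamini-Hochberg FDR under 0.05 with a fold above 1.5 in limma, where 1.79% of the 27433 tested probes did. The log2 change was -0.95 for Pf4 (95% interval -3.24 to 1.34), -0.44 for Itga2b (-1.50 to 0.61), -0.36 for Vwf (-1.33 to 0.62), -0.23 for Gp6 (-2.33 to 1.87), -0.51 for Cd9 (-1.25 to 0.23) and 0.22 for Gp1bb (-0.54 to 0.97), whose probes B and C gave 0.43 and 0.12. The lowest of their limma adjusted p-values was 0.601, and 0 had an unadjusted p under 0.05. The median change of the 6 was -0.40, beside 0.08 over all tested probes. Ppbp and Gp9 were not tested, since Ppbp was above background in 2 CDP tumor-free samples and 1 CDP PyMT-B6 sample and Gp9 in 1 and 0, and no fold is given for them. The intervals of Pf4 and Gp6 were wide enough to hold both no change and a fall of 4-fold. The Pf4 difference rested on 1 sample, since it was -0.14 without CDP tumor-free sample 5. Within slides 2, 3 and 4 the Pf4 difference was -1.07, 2.30 and -0.69, and with the slide as a block it was -0.24.

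In MDPs, 7 of the 8 genes again had a lower mean with tumor, here with Cd9 as the exception. Of the 6 tested genes, 0 passed the thresholds, where 0.062% of all tested probes did. Gp6 and Itga2b had the largest differences. The log2 change was -2.34 for Gp6 (SE 0.98, 95% interval -4.44 to -0.24, limma adjusted p = 0.455) and -1.30 for Itga2b (SE 0.49, -2.35 to -0.24, limma adjusted p = 0.414). Both had an unadjusted limma p under 0.05, at 0.0316 and 0.0195, as did 10.4% of all tested probes. Gp6 was not well above background in any MDP PyMT-B6 sample, so its change is an approximate bound. By that bound it was at least 1.48-fold lower there than in MDP tumor-free samples, 2 of which measured it while the rest entered at background. Gp6 was the only one of the 8 genes whose groups did not overlap, as for 5.23% of all probes. The nearest pair of samples, both at background, differed by 0.0029 log2 units, and the two-sided exact permutation p was 0.0286, the smallest that 4 against 4 samples allow. Itga2b overlapped between groups and had an exact permutation p of 0.143.

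The Itga2b difference was unlike between slides. It was -1.97 within slide 1, 0.15 within slide 2 and -0.23 within slide 3, and -0.94 with the slide as a block (limma adjusted p = 0.222). The Gp6 difference was -3.88, -1.18 and -1.54 within the same slides and -2.51 with the block (limma adjusted p = 0.1396). On slides 2 and 3 both Gp6 readings compared were at background, so only slide 1 held a measured Gp6 level. The other changes in MDPs were -1.01 for Pf4 (-3.30 to 1.27), -0.64 for Vwf (-1.61 to 0.34), -0.39 for Gp1bb (-1.15 to 0.36, with -0.11 and -0.41 for probes B and C) and 0.16 for Cd9 (-0.58 to 0.90). Without MDP PyMT-B6 sample 3, where Pf4 was at background, the Pf4 change was -0.06. Ppbp and Gp9 were each above background in 2 MDP tumor-free samples and 1 MDP PyMT-B6 sample and were not tested. The median change of the 6 tested genes was -0.83 beside -0.11 over all tested probes. Marker sets were read by the log2 of their summed signal, which the brightest markers of a set lead. For 14 erythroid markers, 9 to 13 of them above background, it was 2.68 to 3.38 in MDP tumor-free samples. In MDP PyMT-B6 samples it was 2.39 to 2.62. For 10 endothelial markers, 7 to 10 above background, it was 2.31 to 2.52 and 1.81 to 2.29. Their part in the member values was not tested. Quantile normalization brought the median over all probes to 0.0012, and the 6 changes kept their direction (-0.96 for Itga2b and -1.95 for Gp6).

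**Figure D2:**
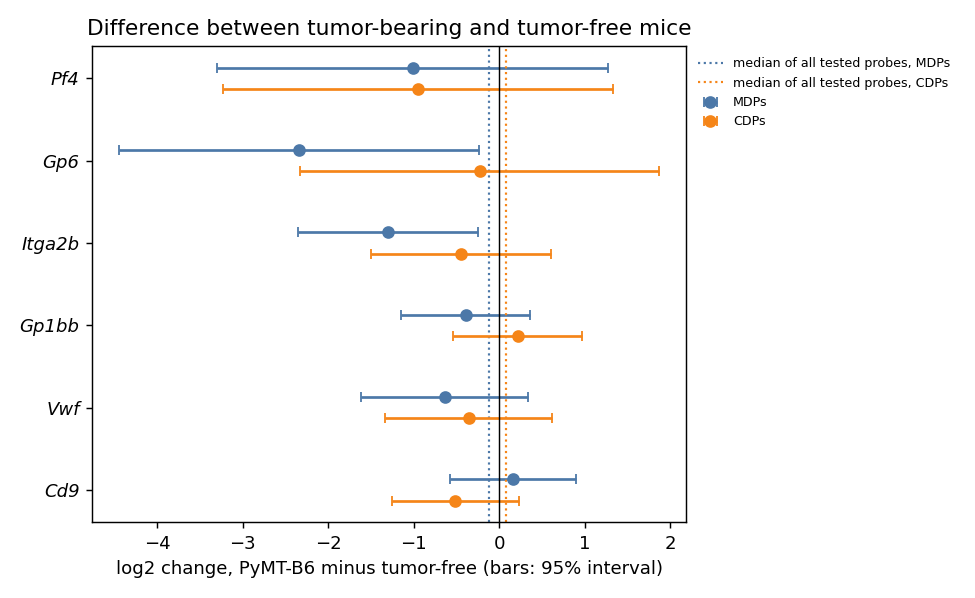
Log2 change with PyMT-B6 tumor (x axis) of the 6 tested genes (y axis) in CDPs and in MDPs, with 95% intervals from the limma fit. The intervals of Itga2b and Gp6 in MDPs lie below 0 and all others cross it, and 0 of the changes passed the threshold.

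The tumor effects in the 2 progenitors were compared with an interaction term. It was 2.11 for Gp6 (95% interval -0.86 to 5.09), 0.85 for Itga2b (-0.64 to 2.34) and between -0.67 and 0.61 for the other 4 tested genes. Gp6 entered the tested set only through CDP PyMT-B6 samples, which count with a plus sign in this term, so its value is a description. In this comparison 0 of 6 passed, where 0.0146% of all probes did, and the lowest limma adjusted p was 0.749. The Gp6 and Itga2b differences in MDPs are thus not shown to be particular to MDPs.

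CDPs were then compared with MDPs within each tumor state. In tumor-free mice 6 of the 8 genes had a higher mean in CDPs and 2, Pf4 and Gp9, a lower one. Of the 6 tested genes 0 passed the thresholds, where 6.07% of all tested probes did, and in tumor-bearing mice 0 of 6 passed, where 7.24% did. In either tumor state 0 of the 8 genes had groups that did not overlap, where 13.4% and 14% of all probes did. The largest difference in tumor-free mice was that of Cd9, at 0.78 log2 units (SE 0.35, limma adjusted p = 0.262). It had the same direction on each slide, at 1.08, 0.48, 1.07 and 0.49 for slides 1 to 4, and was 0.78 with the slide as a block (limma adjusted p = 0.0775). In tumor-bearing mice Gp6 was, by the same kind of approximate bound, at least 1.52-fold higher in CDPs. It was above background in 3 of 4 CDP PyMT-B6 and 0 of 4 MDP PyMT-B6 samples. Gp6 entered the tested set only through CDP PyMT-B6, the group in which it was the brighter of the pair, so its fitted difference of 2.38 log2 units (SE 0.98, limma adjusted p = 0.146) is a description. Itga2b was 1.11 higher (SE 0.49, limma adjusted p = 0.166). The Gp6 difference was -0.05 within slide 2, where both samples were at background, and 3.90 within slide 3. Leaving out CDP PyMT-B6 sample 4, the 1 array of that group at background, gave 3.28 (limma adjusted p = 0.0377), to which the same limit applies. A slide term in the fit left an Itga2b difference of 0.40, moved that of Vwf from 0.95 to 0.36 and that of Gp1bb from 0.66 to 0.05, and turned that of Pf4 from -0.33 to 1.097. Within slides 2 and 3 the Itga2b difference was -0.50 and 0.12. The median over all tested probes was 0.19 in this comparison, beside 0.80 for the 6 genes, which include Gp6 with its limit. Quantile normalization took the median over all probes to -0.0034 and left differences of 0.80 for Itga2b and 1.91 for Gp6. With normexp background correction the Gp6 difference was 0.81. In the main fit the Cd9 difference between CDPs and MDPs in these mice was 0.10 (95% interval -0.64 to 0.84).

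The granule chemokines, Gp9 and Gp6 differed widely between samples of 1 group. The within-group SD was 2.29 log2 units for Ppbp, 1.62 for Pf4, 1.57 for Gp9 and 1.49 for Gp6, beside a median of 0.44 over all tested probes. Between 96.9% and 99.9% of tested probes had a smaller SD than these 4 genes. The SDs of Itga2b (0.74), Vwf (0.68), Gp1bb (0.52) and Cd9 (0.51) were larger than those of 57.6% to 74.8% of tested probes. The 4 genes with the largest SDs each had arrays at background.

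CDP tumor-free sample 5 was the brightest of the 16 for 5 of the 8 genes: Pf4, Ppbp, Gp9, Gp6 and Cd9. The median of the 8 genes there was 1.96 log2 units above the median of the other 3 CDP tumor-free samples, whereas the median over all tested probes was -0.25. MDP tumor-free sample 3, on the same slide, was the only other array with all 8 genes above background, and MDP PyMT-B6 sample 3 had the fewest, 4 of 8. The array was also the brightest of 16 for 11 of 56 genes of a wider megakaryocyte list (19.6%), beside 8.67% of all tested probes. Chosen after their values were seen, Alox12, a platelet lipoxygenase, was at -0.55 there and between -7.50 and -3.26 in the other CDP tumor-free samples, and Thbs1, an alpha granule protein, at -1.20 against -4.85 to -4.53. On this array the log2 of the summed signal of 14 erythroid markers was 2.49, the lowest of its group (2.49 to 4.08). Of these markers, 10 were above background. For 10 endothelial markers, 8 above background, the same measure was 2.31 in a group range of 1.95 to 2.47. Without this sample the change with tumor in CDPs was 0.51 for Gp6 and -0.27 for Cd9, and the difference between CDPs and MDPs in tumor-free mice was 0.53 for Cd9 and -0.47 for Gp6, none past the thresholds. The part of these marker levels in the member values was not tested. In sorted populations measured in bulk, a different number of megakaryocyte-lineage cells and a different amount of RNA per cell cannot be told apart.

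**Figure D3:**
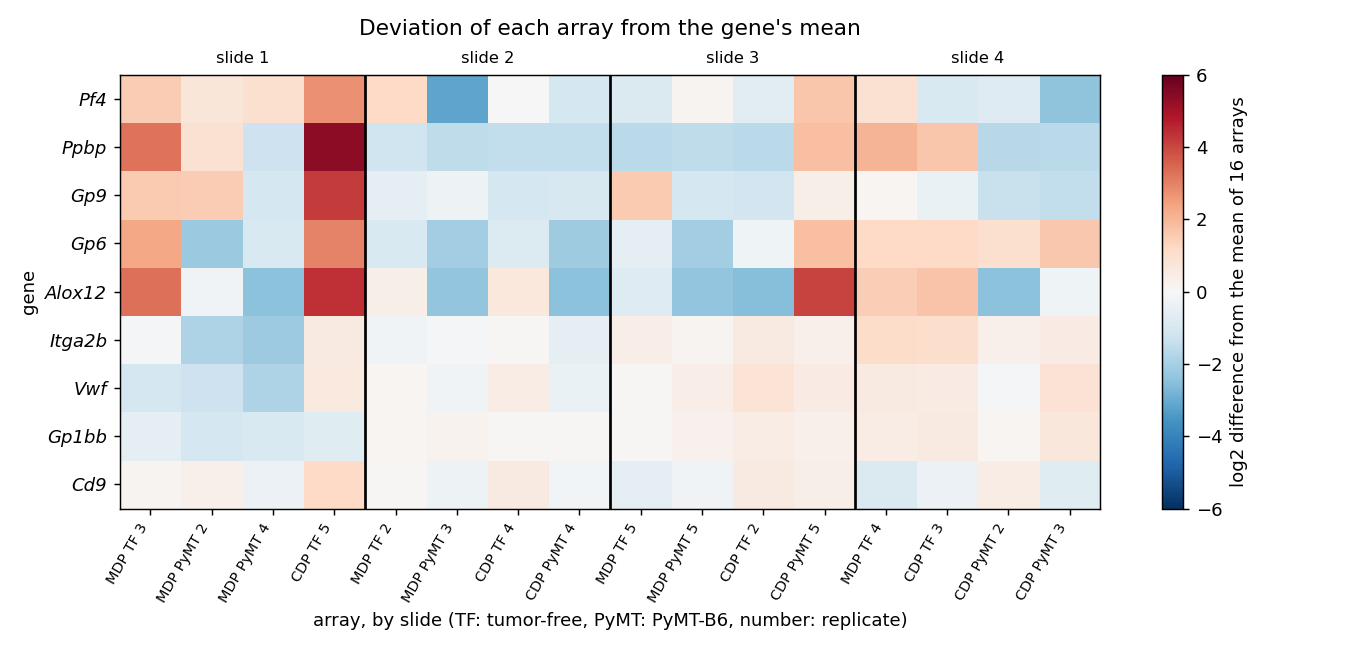
Heat map of the 8 genes and Alox12 (rows) over the 16 arrays (columns), colored by the deviation in log2 units from the gene's mean over all arrays. Alox12 is not one of the 8 genes and was chosen after its values were seen. CDP tumor-free sample 5 is bright for Pf4, Ppbp, Gp9, Gp6 and Cd9 together and dim for Gp1bb.

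Correlations between the 8 genes are given as descriptions over 16 arrays, which share slides and cell types. Of 28 pairs, 9 had a Pearson r above 0.5 and 8 had an r below 0. After slide means were subtracted, 12 were above 0.5 and 2 below 0, so the negative values lay mostly between slides. Itga2b and Vwf had the highest r, 0.865, and kept 0.769 with slide means subtracted, while Vwf and Gp1bb went from 0.779 to 0.482 and Itga2b and Gp1bb from 0.743 to 0.548. Ppbp and Gp9 went from 0.793 to 0.754, Ppbp and Gp6 from 0.686 to 0.697, the neighbouring chemokines Pf4 and Ppbp from 0.680 to 0.590, and Pf4 and Gp9 from 0.565 to 0.284. Without CDP tumor-free sample 5 these 4 pairs had an r of 0.615, 0.574, 0.559 and 0.370. With slide means subtracted r was higher for Itga2b with Ppbp (0.216 and 0.790), with Gp9 (0.04 and 0.715) and with Gp6 (0.545 and 0.764). Pf4 and Gp1bb had the lowest r, at -0.555, and -0.07 with slide means subtracted.

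Of the 8 genes, Gp1bb followed the slide most closely. Slide accounted for 90.6% of the variance of probe A, 91.2% of probe B and 81.4% of probe C, and group for 21.8%, 26.2% and 29.6%, where the medians over all tested probes were 48.5% and 30.4%. For the other 7 genes slide accounted for 23.6% (Cd9) to 52.5% (Vwf). The high share held in probes B and C, whose G and C content was 55.0%, as well as in probe A. Whether slide, RNA of the samples on it or both set these values was not tested.

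Among genes outside the 8, those whose brightest probe had the highest Pearson r with a tested member over the 16 arrays were these. For Pf4 they were Ppapdc2 (0.900), 5730455P16Rik (0.878) and Sesn3 (0.858), with 0.863, 0.852 and 0.756 after slide means were subtracted. For Itga2b they were A430106G13Rik (0.958), Gm11733 (0.953) and TC1601409 (0.944), and for Vwf Nat14 (0.950), Haao (0.940) and 9530036O11Rik (0.935). For Gp1bb they were Proz (0.989), AI835735 (0.988) and Olfr821 (0.987). For Gp6 they were BB236558 (0.851), TC1702798 (0.830) and BC024978 (0.810), and for Cd9 Sepp1 (0.943), H2-M3 (0.904) and LOC102634459 (0.893). After slide means were subtracted r was 0.976 for Cd9 and Sepp1 and 0.904 for Cd9 and H2-M3, and 0.873 for Gp1bb and AI835735.

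Other genes of the lineage were read from a list of 70 megakaryocyte genes, of which 69 were on the array and 56 were tested. With tumor in CDPs, 1 rose and 2 fell past the thresholds, 5.36% of the 56 beside 1.79% of all probes, and the median change of the 56 was -0.11. Selp, the P-selectin of alpha granules and endothelium, rose by 2.998 log2 units (SE 0.45, limma adjusted p = 0.00487). It was at -5.46, -5.30, -6.09 and -5.14 in CDP tumor-free samples, of which only sample 5 was above background, so that the size of the rise rests on a group mostly at background, and at -3.23, -1.16, -2.32 and -3.28 in CDP PyMT-B6 samples. Itgb3, the beta partner of Itga2b in the fibrinogen receptor, fell by 1.94 (SE 0.42, limma adjusted p = 0.0327), from 0.51, 0.94, 1.07 and 1.81 to -0.69, -1.21, -1.68 and 0.16. Erg, an ETS factor of stem cells and megakaryocytes, fell by 3.64 (SE 0.63, limma adjusted p = 0.0114), from -1.34, -2.23, -2.56 and -0.65 to -7.18, -4.29, -6.12 and -3.75, with samples 3 and 5 of CDP PyMT-B6 above background. For each of the 3 genes the tumor-free and tumor-bearing ranges were separate.

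Within slides 2, 3 and 4 the change was 3.77, 2.18 and 3.10 for Selp, -2.75, -0.35 and -1.89 for Itgb3, and -3.56, -2.41 and -3.51 for Erg. Adding the slide as a fixed term gave limma adjusted p-values of 0.00485, 0.0272 and 0.00880. The Itgb3 call was lost on leaving out any 1 of 7 of the 8 CDP samples (limma adjusted p between 0.0511 and 0.114), the exception being CDP PyMT-B6 sample 5, and a second Itgb3 probe changed by -0.65 (limma adjusted p = 0.656). Both subunits of the fibrinogen receptor thus had lower means with tumor in CDPs, and the fall passed the test for Itgb3 and did not for Itga2b. In MDPs 0 of the 56 genes passed, beside 0.062% of all probes, and 6 had an unadjusted limma p under 0.05, beside 10.4% of all probes. Of 10 endothelial markers, 8 to 10 were above background. The log2 of their summed signal was 1.95 to 2.47 in CDP tumor-free and 1.46 to 2.01 in CDP PyMT-B6 samples. That of 11 neutrophil markers, all above background, was 5.62 to 6.13 and 6.43 to 6.94, that of 8 T and NK cell markers, 5 to 7 above background, 0.904 to 1.60 and 1.64 to 1.98, and that of the 6 MDP and CDP markers 5.43 to 5.59 and 5.06 to 5.21. That of 14 erythroid markers, 9 to 13 above background, was 2.49 to 4.08 in CDP tumor-free and 2.20 to 2.89 in CDP PyMT-B6 samples. The median change of single tested markers was -0.96 (erythroid), -0.01 (endothelial), 0.61 (neutrophil), 0.47 (T and NK cell) and -0.85 (MDP and CDP). The part of these markers in the changes of Selp, Itgb3 and Erg was not tested. In MDPs Selp differed by 1.96 (limma adjusted p = 0.169), Itgb3 by -1.23 (0.370) and Erg by -0.22 (0.882). For the difference of the tumor effects 0 of 56 passed, beside 0.0146% of all probes, and 3 had an unadjusted p under 0.05, beside 4.05% of all probes.

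**Figure D4:**
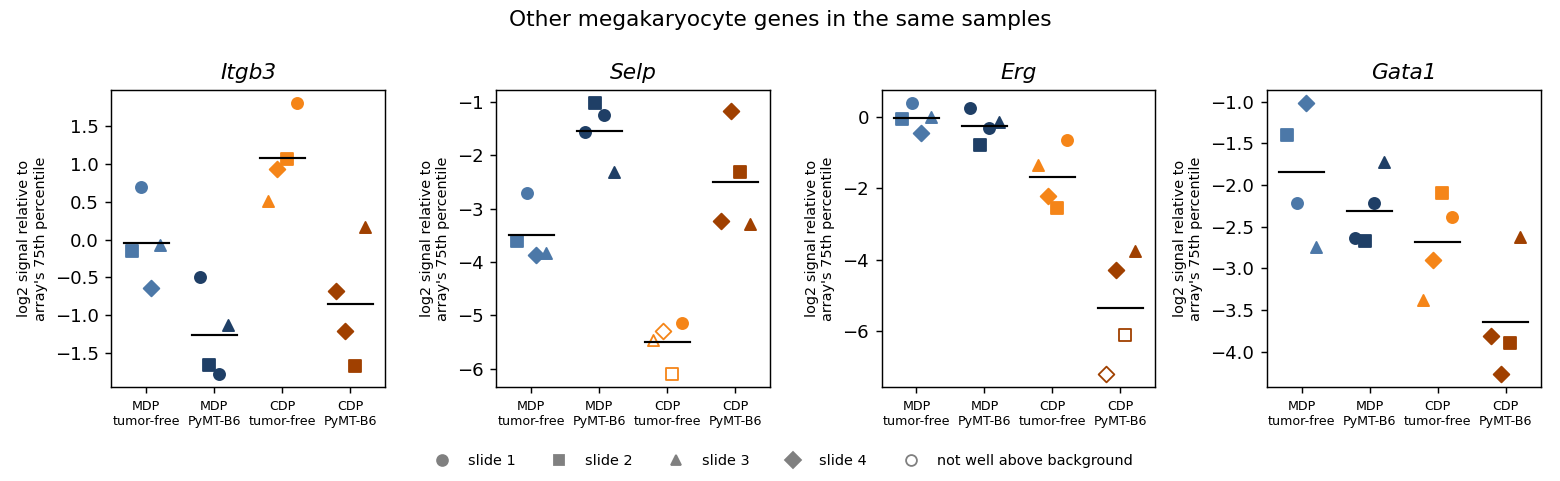
Normalised log2 signal (y axis) of Itgb3, Selp, Erg and Gata1 in the 4 groups (x axis), with 1 point per array, a bar at the mean, the symbol showing the slide and open symbols where the probe was not well above background. In CDPs the tumor-bearing samples lie below the tumor-free ones for Itgb3 and Erg and above them for Selp, and those of Gata1 overlap.

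The other receptors and regulators that define the lineage did not pass in CDPs with tumor. Gp1ba was above background in 2 CDP tumor-free and 3 CDP PyMT-B6 samples, and Gp5 in 2 and 0. In MDPs Gp1ba was above background in 1 sample of each group, and Gp5 in 3 tumor-free and 1 PyMT-B6 samples. Gp1ba entered the tested set only through CDP PyMT-B6 and Gp5 only through MDP tumor-free samples. Their changes thus rest partly on background signals and are descriptions. In CDPs the log2 change was -0.08 for Gp1ba (SE 1.17) and -0.26 for Gp5 (SE 0.33), both partners of Gp1bb. For Tubb1, the platelet beta tubulin, it was 0.35 (SE 0.42). Among transcription factors of the lineage it was -0.96 for Gata1 (SE 0.43, limma adjusted p = 0.333), 0.12 for Nfe2 (SE 0.18), -0.07 for Fli1 (SE 0.31), -0.38 for Runx1 (SE 0.21, and 0.12 for a second probe) and 0.21 for Gfi1b (SE 0.62). In MDPs the change was -1.24 for Tubb1 (SE 0.42, limma adjusted p = 0.367), -1.33 for Gfi1b (SE 0.62), -0.80 for Gp1ba (SE 1.17), 0.01 for Gp5 (SE 0.33), -0.47 for Gata1 (SE 0.43), -0.06 for Nfe2 (SE 0.18), 0.29 for Fli1 (SE 0.31) and -0.01 for Runx1 (SE 0.21). The lowest Tubb1 signals, -4.87 and -4.86, were in MDP PyMT-B6 samples 2 and 4 on slide 1, the samples with the lowest Itga2b.

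CDPs and MDPs differed in more of the list. In tumor-free mice 0 genes were higher and 10 lower in CDPs past the thresholds, 17.9% of the 56 beside 6.07% of all probes, and in tumor-bearing mice 1 was higher and 10 lower, 19.6% beside 7.24%. The median changes of the 56, 0.06 and 0.29, were not below 0, so the falls were in particular genes and not over the list. Of these, 8 genes were lower in CDPs in both tumor states, which is 80.0% of the tumor-free calls and 72.7% of the others. They were Cd63, a granule membrane tetraspanin (-2.50 without tumor and -2.85 with tumor), Tmem40 (-1.65 and -2.58), F2rl3, a thrombin receptor (-1.63 and -2.75), Clu, a secreted chaperone (-1.47 and -1.33), Ptgs1, cyclooxygenase-1 (-1.29 and -1.24), Srgn, the granule proteoglycan serglycin (-1.26 and -1.004), and the transcription factors Tal1 (-1.28 and -0.95) and Meis1 (-0.96 and -1.29). Each of the 8 was lower in CDPs within all 4 slides in tumor-free mice and within slides 2 and 3, which held both progenitors, in tumor-bearing mice. The count of 10 in tumor-free mice went to 6 on leaving out CDP tumor-free sample 2 or 4 or MDP tumor-free sample 2, 3 or 5, and that of 11 in tumor-bearing mice to 7 without MDP PyMT-B6 sample 2. A slide term ended the calls of Clu (limma adjusted p = 0.121) and Ptgs1 (limma adjusted p = 0.058) in tumor-bearing mice and of none of the 8 in tumor-free mice. Over 20 settings of the processing, Cd63, Srgn, F2rl3 and Tal1 kept their calls in all 20 in both tumor states. Without tumor Ptgs1 kept its call in 18, Clu in 13, Tmem40 in 12 and Meis1 in 9. With tumor Tmem40 and Meis1 kept theirs in 20, Ptgs1 in 15 and Clu in 8.

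Selp (-1.99) and Gata2 (-2.82), a GATA factor of stem cells and early progenitors, passed in tumor-free mice only. Selp was above background in only 1 of 4 CDP tumor-free samples, so the size of its fall rests on a group mostly at background. The Gata2 call held in 9 of 19 settings of the processing. In tumor-bearing mice only, F2r, another thrombin receptor, Erg (-5.08) and Bin2 (0.78) passed, Bin2 as the only gene higher in CDPs. F2r was above background in 0 of 4 CDP PyMT-B6 samples and was tested through the MDP groups, in which it was the brighter. It is therefore given by an approximate bound as at least 1.54-fold lower in CDPs. Erg was above background in 2 of 4 CDP PyMT-B6 samples. A slide term ended the calls of F2r (limma adjusted p = 0.0758) and Bin2 (0.44, limma adjusted p = 0.0879). The differences between tumor states were tested by the interaction term, which 0 of these genes passed. Several of these genes are not restricted to megakaryocytes, since Srgn, Cd63 and Ptgs1 are also made in mast cells and Meis1 and Tal1 in stem cells. Of 6 tested stem and early progenitor markers, which include Gata2, 3 were lower and 0 higher in CDPs past the thresholds without tumor. With tumor 2 were lower and 1 higher. Their median difference was -1.56 without tumor and -2.51 with tumor. Of 13 tested erythroid markers, 4 were lower and 0 higher in each tumor state, with medians of -0.11 and -0.79. Of 9 mast cell and basophil markers, 4 to 6 were above background on an array. The log2 of their summed signal was 2.99 to 3.18 in MDP tumor-free and 0.656 to 1.92 in CDP tumor-free samples. In the PyMT-B6 groups it was 3.02 to 3.19 and 1.82 to 2.31. For 8 T and NK cell markers, 4 to 7 above background, the sum was 3.82 to 3.87 in MDP tumor-free samples. It was 0.904 to 1.60 in CDP tumor-free samples, and 3.84 to 4.20 and 1.64 to 1.98 in the PyMT-B6 groups. Of the 6 tested T and NK cell markers, 1 was lower and 0 higher in CDPs past the thresholds, whichever the tumor state. Their median difference was -0.08 without tumor and 0.60 with tumor, so the set did not share the fall of its sum. For the 5 tested mast cell and basophil markers the median difference was -0.37 without tumor and -0.14 with tumor. Of these, 2 and 1 were lower past the thresholds and 0 higher. Of 11 neutrophil markers 10 or 11 were above background in tumor-free mice. The log2 of their summed signal was 6.46 to 7.04 in MDPs and 5.62 to 6.13 in CDPs. That of 8 monocyte and macrophage markers, all above background, was 4.74 to 5.03 and 5.06 to 5.50. Single neutrophil markers did not share a direction, with 2 higher and 2 lower in CDPs past the thresholds and a median difference of 0.51. For the monocyte and macrophage markers the median difference was 0.48. The part of these markers in the differences between CDPs and MDPs was not tested.

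**Figure D5:**
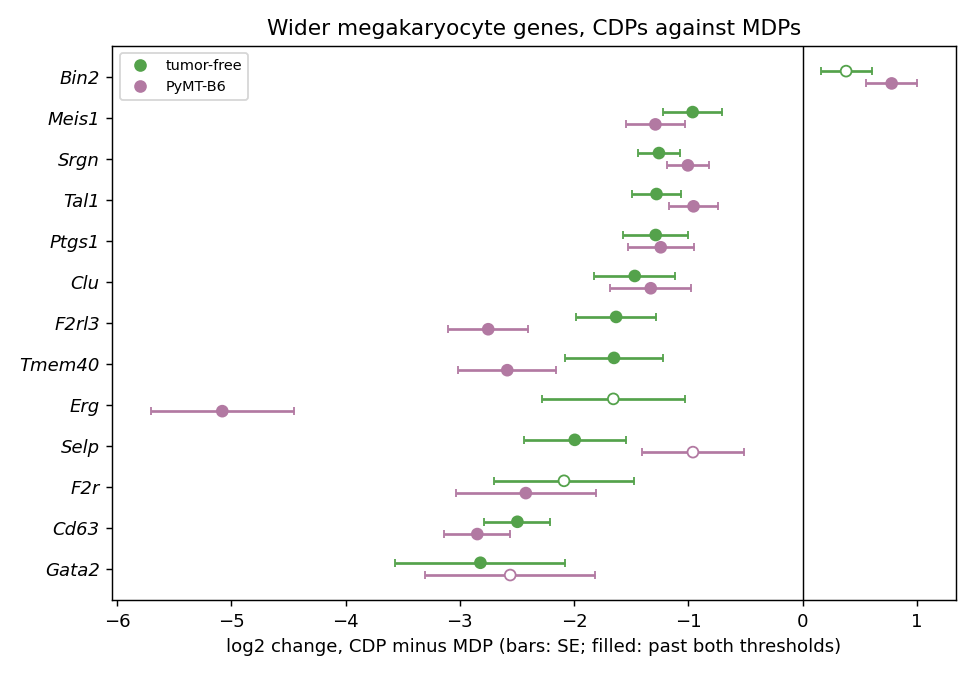
Log2 difference between CDPs and MDPs (x axis) of the wider megakaryocyte genes that passed in either tumor state (y axis), with bars of 1 SE and filled points where the gene passed both thresholds. Of the 13 genes, 12 lie below 0 in both tumor states and Bin2 lies above it.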

How the data were processed

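Each of the 16 samples was hybridized to a one-color array, and the deposited scanner files hold spot intensity values with 0 or 1 quality flags from Agilent Feature Extraction 11.5.1.1 (Cy5, annotation on mm9), which subtracted background within each array. The authors also deposited a table of log2 values for 26793 probes, whose probe selection is not given in the sources used here and whose columns follow quantile-normalized intensities. It served as an alternative only. The labels' processing notes name limma without a version.

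From the scanner files, control spots and spots flagged as outliers were dropped, the log2 of the processed signal was set relative to the array's 75th percentile, and spots of a probe were averaged. A probe was tested if the scanner flagged it as well above background on 3 or 4 arrays of any group, which left 27433 of 39429. A single limma 3.58.1 fit (R 4.3.3) of 4 group means gave 5 comparisons, in which a call needed a fold above 1.5 and an FDR (Benjamini-Hochberg) under 0.05. Exact permutation tests of single genes were two-sided over 70 relabelings. The procedure was tested on simulated data. Bounds used, on each array of the group at background, the lowest signal among probes well above background, or the gene's own signal where higher. The other group kept its measured signals, also on arrays at background, so the bounds are approximate. The number of arrays limits the precision, and p-values measure the spread between pools of mice. Samples were grouped by title. Alternatives covered background correction, scaling, filters, the slide, replicate numbers, single samples left out and the methods' t-test.

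The 8 genes and the lists were chosen with earlier results of these data known. Each gene is given by its brightest probe, with the other probes beside it. Genes of the wider list are named where a tested probe passed in any comparison or where they belong to a set of defining genes (Gata1, Gp1ba, Gp5, Itgb3, Tubb1, Nfe2, Fli1, Runx1, Gfi1b), of which 1 more is not reported here. The 3 most alike genes of each tested member were taken by Pearson r. Arrays were also read for markers of MDPs and CDPs, stem, erythroid, endothelial, mast, neutrophil, monocyte, B, T and NK cells and tumor epithelium.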

Additional observations from a re-analysis of the deposited data

Results flagged for a closer look

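Of 40 groups of 4 samples checked (10 probes in 4 groups), 6 held a sample whose distance from its nearest neighbour made up more of the group's range than Dixon's 95% critical value allows. Chance gives this in about 1 in 20 groups, and the 4 groups of a probe and the 3 probes of Gp1bb are not independent. Ppbp was highest in MDP PyMT-B6 sample 2 (-4.82) and in CDP PyMT-B6 sample 5 (-3.92), and in each group the other 3 samples were at background. Gp9 was highest in CDP tumor-free sample 5 (-1.55), the other 3 samples being at background. Gp6 was highest in MDP PyMT-B6 sample 4 (-6.05), where all 4 samples were not well above background. Gp1bb was lowest by probe B in CDP PyMT-B6 sample 4 (-2.56) and by probe C in CDP tumor-free sample 5 (-2.93).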

How the results depend on the processing

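For CDPs with tumor, for the difference of the tumor effects and for CDPs against MDPs in tumor-free mice, 0 of the 8 genes passed under each alternative run. In MDPs with tumor 1 gene, Gp6, passed by the methods' t-test with an unadjusted p. For CDPs against MDPs in tumor-bearing mice 1 gene, again Gp6, passed by that t-test, and leaving out single samples gave 0 to 1, the 1 arising without CDP PyMT-B6 sample 4, with Gp6 tested only through that group. Of 615 recomputed changes of single members 34 had the other sign, none of them called. With the replicate number as a block 0 members passed in each comparison, and the calls over all probes went from 491 to 371, from 17 to 10, from 1665 to 1427 and from 1986 to 1502. The samples were not treated as paired by these numbers, whose meaning the labels do not give. Of 24 same-numbered pairs, 8 correlated above 0.1 (r from -0.695 to 0.481). Most of these pairs lay on different slides, so the correlations cannot show whether the numbers mark shared mice.

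Calls over all probes ranged over alternatives from 3 to 2072 for tumor in CDPs, from 1 to 1016 for tumor in MDPs, from 0 to 7 for the difference of these effects, from 1116 to 2995 for the progenitors in tumor-free mice and from 587 to 4122 in tumor-bearing mice. The wider list gave 0 to 7 calls for tumor in CDPs (3 as reported), with 6 when the slide was a block and 0 when only the compared groups were fitted or the methods' t-test was adjusted. For the progenitors it gave 5 to 16 calls in tumor-free mice (10 as reported) and 7 to 16 in tumor-bearing mice (11 as reported), with 16 in each by the methods' t-test with an unadjusted p and 5 and 7 by its adjusted form. Selp and Erg passed in 17 of 19 settings and Itgb3 in 11 of 20, all with 1 direction. The signal over background limits Ppbp, Gp9 and Gp6, which were at background on more than 8 of the 16 arrays. The cause of these shifts was not tested.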
